A study of Caenorhabditis elegans with 3 samples.

Results

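The vacuolar ATPase (V-ATPase) of Caenorhabditis elegans has 10 genes for the subunits of its membrane sector, V0, and their occupancy by the transcription factor PQM-1 was read from peak lists of chromatin immunoprecipitation and sequencing (ChIP-seq). The genes were taken by name as the V0 subunit genes, with no threshold on signal, and are 10 of 19973 nuclear protein-coding genes in the annotation of genome build WBcel235 (ce11). They are vha-6, unc-32, vha-5 and vha-7 for the a subunit, vha-1, vha-2 and vha-3 for the c subunit, vha-4 for c'', vha-16 for d and vha-17 for e. All animals were whole L4 larvae of strain OP201, males and females pooled, with the genotype unc-119(tm4063) III and the integrated transgene wgIs201, which supplies PQM-1 fused at its C-terminus to GFP and FLAG. The genes are scattered over the genome. vha-6 (11435210 to 11438452, minus strand) and vha-4 (7878082 to 7879316, minus) are on chromosome II, and unc-32 (8905615 to 8911756, plus), vha-1 (9781254 to 9781763, plus) and vha-2 (9782164 to 9783224, plus) on III. Chromosome IV has vha-5 (8303968 to 8307371, plus), vha-7 (12640462 to 12650652, plus), vha-3 (2315460 to 2315945, minus) and vha-17 (9321801 to 9322525, plus), and vha-16 is on chromosome I (5079910 to 5082279, minus). There was 1 group and no comparison of conditions. The 3 libraries came from 2 biological replicates, replicate 1 with 2 technical libraries and replicate 2 with 1. Whole animals were used, so a peak does not tell in which tissue PQM-1 was bound.

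The V-ATPase is a rotary proton pump of endosomes, lysosomes and, in some epithelia, the plasma membrane. Its V1 sector hydrolyses ATP in the cytosol and turns the ring of c subunits in V0, and the a subunit beside the ring carries the proton path and directs the pump to a membrane. The worm's a subunits differ in where they act: VHA-6 serves the apical membrane of the intestine and acidifies the gut lumen, UNC-32 acts mainly in the nervous system, VHA-5 in the excretory canal and epidermis, and VHA-7 in the epidermis. PQM-1 is a zinc finger protein of the intestine and other tissues known from stress and insulin signalling, and the word TGATAAG, which contains the core of GATA factor sites, is the element linked to it.

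4 upstream windows, each a summit with 100 bp on either side, show the sequence side of these data. They are the strongest V0 promoter site (vha-6, chrII:11438513-11438713), the strongest site of the c ring within a promoter (vha-1, chrIII:9780749-9780949), another V0 promoter site with a GATA word (vha-17, chrIV:9321239-9321439) and the site just under the authors' threshold (vha-4, chrII:7879415-7879615). The windows are from the RefSeq sequence of WBcel235 and overlap no annotated exon. Each is given 5′ to 3′ on the strand of its V0 gene, which is minus for vha-6 and vha-4 and plus for vha-1 and vha-17. Capitals mark matches, on either strand, to TGATAAG or to a GATA core word. AGATAA was the first core word searched, AGATAG the next, TGATAA another and TGATAG the last. The windows of vha-1 and vha-4 have no capitals because none of these words was found in them.
vha-6: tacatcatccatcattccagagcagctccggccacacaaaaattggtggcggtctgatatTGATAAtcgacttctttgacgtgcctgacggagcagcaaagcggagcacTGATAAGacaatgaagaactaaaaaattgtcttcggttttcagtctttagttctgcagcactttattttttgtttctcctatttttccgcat
vha-1: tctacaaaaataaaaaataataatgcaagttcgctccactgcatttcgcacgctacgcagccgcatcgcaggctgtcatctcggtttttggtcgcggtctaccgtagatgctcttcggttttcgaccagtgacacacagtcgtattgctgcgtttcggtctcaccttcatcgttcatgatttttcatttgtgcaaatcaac
vha-17: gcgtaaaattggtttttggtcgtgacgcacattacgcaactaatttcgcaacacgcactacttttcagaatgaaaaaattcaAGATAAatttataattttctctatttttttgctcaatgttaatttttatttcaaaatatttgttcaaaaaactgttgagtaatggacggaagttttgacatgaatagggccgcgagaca
vha-4: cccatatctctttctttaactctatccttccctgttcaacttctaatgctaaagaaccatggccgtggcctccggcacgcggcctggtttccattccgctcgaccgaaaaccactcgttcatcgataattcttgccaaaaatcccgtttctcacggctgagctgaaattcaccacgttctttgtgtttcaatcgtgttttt

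Of the V0 genes, 4 of 10 had a PQM-1 summit in the promoter (40%, exact 95% CI 12.2 to 73.8), against 12.8% of all nuclear protein-coding genes (2553 of 19973). Promoters here reach from 1000 bp before to 200 bp after the outermost start of a gene, and summits were those of the optimal list, in which the authors kept 4739 reproducible peaks. The 4 genes were vha-6, vha-1, vha-16 and vha-17. Within 5 kb of the gene body the count was 7 of 10, against 41.7% of all genes, and the additional genes were vha-2, vha-3 and unc-32. No optimal summit lay within 5 kb of vha-4, vha-5 or vha-7. These counts are descriptions and were not tested. The interval treats genes as independent and measures no spread between replicates.

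Strength is given below as the authors' signal, a value per peak set against a control alignment, with no stated scale. Levels were compared within a list only, by rank or by ratio, and such ratios depend on the unstated scale. Between lists, levels were not compared. Only ranks were used, and the ratio of the replicates at the same peaks, set beside that ratio over all optimal peaks. In the optimal list it ran from 31.5 to 350 with a median of 55.4, and the optimal peaks were the 4739 strongest of 18821 pooled peaks, so an optimal peak has the same value in the pooled list. The lists of replicate 1 (24037 peaks) and replicate 2 (19029 nuclear peaks) have scales of their own, and like the pooled list they include background peaks.

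**Figure D1:**
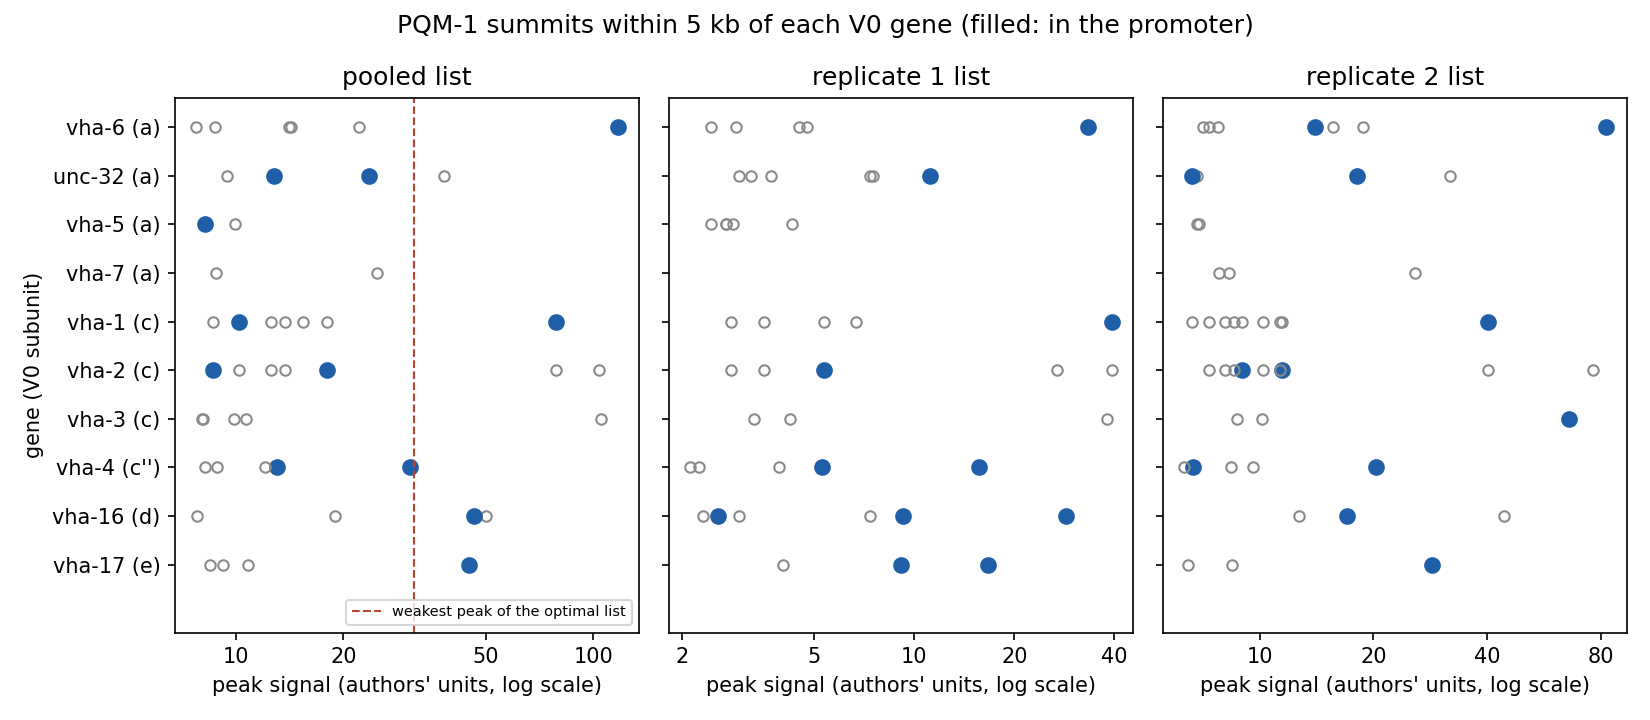
Signal of every summit within 5 kb of each V0 gene in the pooled, replicate 1 and replicate 2 lists (x, authors' units, log scale; y, gene with its subunit in brackets). Filled points are promoter summits, open points all others, and the dashed line at 31.5 is the weakest optimal peak; vha-6 has the highest promoter point in the pooled list (117) and in replicate 2 (82.6), while in replicate 1 vha-6 (33.4) is below vha-1 (39.4).

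The intestinal a subunit gene vha-6 carried the strongest PQM-1 promoter peak of the V0 genes in the optimal list and in replicate 2, and the next after vha-1 in replicate 1. Its signal was 117 in the optimal list, rank 353 of 4739, and the summit was offset by −161 bp from the gene start (negative values are upstream). In the replicates' own lists the signal was 33.4 in replicate 1 (rank 480) and 82.6 in replicate 2 (rank 404), with summits at −163 and −178 bp. All lists thus placed it at nearly the same point, between vha-6 and VW02B12L.2, the gene before it on the same strand, which ends 724 bp from the vha-6 start. Of the 2553 genes with a promoter summit, 178 had a stronger one than vha-6, among them elt-2, the GATA factor of the intestine, with 136 at −429 bp. The peak spanned 11438531 to 11438678 on chromosome II, and the other 5 pooled summits within 5 kb of vha-6 were weak, from 7.74 to 22.1.

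The 3 other a subunit genes had no promoter summit in the optimal list, so vha-6 was compared with them in the pooled list. There the next was unc-32 with a promoter signal of 23.6 at −581 bp, rank 6174, and vha-6 was 4.96 times as high (log2 ratio 2.31). In replicate 1 the values were 33.4 for vha-6 and 11.2 for unc-32, a ratio of 2.99. In replicate 2 they were 82.6 for vha-6 and 18.1 for unc-32, a ratio of 4.58. The unc-32 summit used was at −380 bp in replicate 1 and −600 bp in replicate 2, near the weaker (12.8 at −377 bp) and the stronger of its pooled promoter summits, so the replicates do not rank the same unc-32 site highest. The log2 ratio was 1.89 ± 0.44 (SD, n = 2 replicates), and vha-6 was the higher gene in both. No test was run over 2 replicates.

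With sites outside promoters included, the ratio was lower in the pooled list and in replicate 2 and the same in replicate 1, where the promoter site of unc-32 is also its strongest within 5 kb. unc-32 had 1 optimal summit within 5 kb, of signal 38.1 (rank 3856), at −1303 bp. That summit lay at −181 bp from the start of lin-9, which is transcribed away from unc-32 and encodes a protein of the DREAM complex. Its signal was 7.33 in replicate 1 and 31.8 in replicate 2. Taking the strongest summit within 5 kb, vha-6 was 3.08 times as high as unc-32 in the pooled list, 2.99 times in replicate 1 and 2.60 times in replicate 2.

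At vha-5 and vha-7 few pooled peaks were listed, and all were below the optimal threshold. vha-5 had pooled summits of 9.96 at −1228 bp and 8.18 at −444 bp, ranks 13249 and 16919 of 18821. Replicate 1 listed 5 summits within 5 kb of vha-5, the strongest 4.28. No promoter summit of vha-5 was listed in either replicate. vha-7 had no promoter summit in any list, and its strongest pooled site, 24.8 at 12792 bp from the start, lay beyond the end of the 10191 bp gene. Replicate 2 listed that site at 25.7, and replicate 1 listed no summit within 5 kb of vha-7. Among the a subunits the pooled promoter order was therefore vha-6, unc-32, vha-5 and then vha-7 with none. The proteins of the 4 a subunit genes are relatives of one another: VHA-6 is 55.8% identical to UNC-32, 49.9% to VHA-5 and 49.4% to VHA-7 over aligned residues of the annotated coding sequences.

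**Figure D2:**
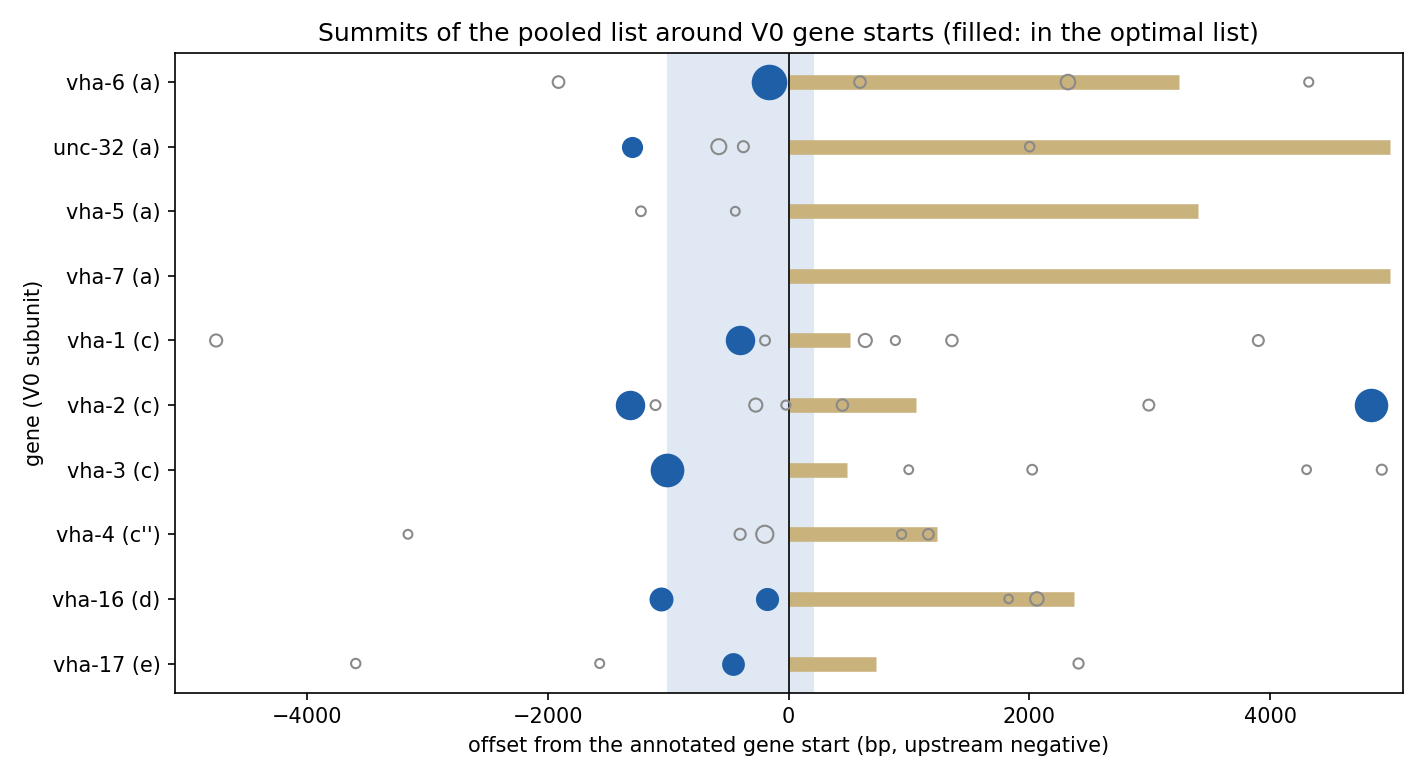
Positions of pooled summits relative to the start of each V0 gene (x, bp, upstream negative; y, gene with its subunit). Bars are gene bodies cut off at the axis limit, the shaded band is the promoter, circle area grows with signal, and filled circles are optimal peaks; the optimal summits of vha-2, vha-3 and unc-32 lie outside the shaded band, that of vha-3 at −1013 bp.

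In the c ring, which carries protons across the membrane as it turns, 1 of 4 genes had an optimal promoter summit. The share of all nuclear protein-coding genes was 12.8%. Strong sites stood close to 2 others of the 4 genes. At vha-1 the signal was 78.4 (rank 1175) at −405 bp. Its summit also fell in the promoter of sqv-3, a glycosyltransferase gene on the opposite strand, at −495 bp, so the peak cannot be given to one of the 2 genes. Replicate 1 listed it at 39.4 (rank 294) and replicate 2 at 40.1 (rank 2328). This placed vha-1 far higher among the peaks of replicate 1 than among those of replicate 2.

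vha-2 starts 400 bp beyond the end of vha-1 on the same strand. The vha-1 summit was thus also within 5 kb of vha-2, at −1315 bp. In the promoter counted from its own start, vha-2 had only weak peaks. The stronger had a pooled signal of 17.997 (rank 7646) at −274 bp, 5.36 in replicate 1 and 11.5 in replicate 2. Whether vha-2 is transcribed together with vha-1, from a start upstream of vha-1, was not examined, and each gene was counted by its own start. A second optimal summit within range had a signal of 103 (rank 548) at 4839 bp, past the end of vha-2 in an exon of R10E11.5. It was listed at 26.9 in replicate 1 and 76.1 in replicate 2.

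vha-3 encodes the same 161 amino acids as vha-2 (100% identity), and both are 65.8% identical to VHA-1. Its nearest optimal summit, with a signal of 105 (rank 522), was the strongest optimal site within 5 kb of the c ring genes. It lay at −1013 bp, 13 bp outside the promoter as defined, in a noncoding exon of Y38F2AL.12 on the opposite strand, at 385 bp from that gene's start. The replicates listed it at 38.1 and −1007 bp (replicate 1) and at 65.9 and −993 bp (replicate 2), so that it counted as a promoter summit of vha-3 in replicate 2 alone. vha-11, the V1 subunit C gene, starts 892 bp beyond the end of vha-3 on the same strand. It had no optimal promoter summit, and this same site, −2391 bp from its start, was its only optimal summit within 5 kb. Whether vha-11 is transcribed together with vha-3 was not examined either.

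vha-4, the c'' gene, missed the optimal list narrowly. Its promoter summit at −199 bp had a pooled signal of 30.8 (rank 4869), against 31.5 for the weakest optimal peak, and stood 130 ranks below the end of that list. The signal was 15.7 in replicate 1 (rank 2755) and 20.3 in replicate 2 (rank 5339). T01H3.5 on the opposite strand shares the site, at −101 bp from its own start. Ranked by replicate 1 alone, vha-4 would be inside the top 4739 peaks, and by replicate 2 alone outside them.

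The genes of subunits d and e both had optimal promoter summits, with signals below the optimal median of 55.4. vha-16, whose d subunit couples the c ring to the central stalk of V1, had 1 at −183 bp with a signal of 46.2 (rank 3051) and another at −1058 bp with 50.1 (rank 2746). The replicates ordered these 2 sites in opposite ways. Replicate 1 had 28.5 at the near site and 9.26 at the far one, and replicate 2 had 16.997 at the near site and 44.3 at the far one. The far summit was at −954 bp in replicate 1, inside the promoter, and at −1058 bp in replicate 2, outside it. vha-17, which encodes the small e subunit and is also known as the fusion gene fus-1, had 44.9 (rank 3189) at −462 bp. That summit was listed at 16.6 in replicate 1 and 28.6 in replicate 2, and it also lay in the promoter of F49C12.12 on the opposite strand, at −250 bp.

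**Figure D3:**
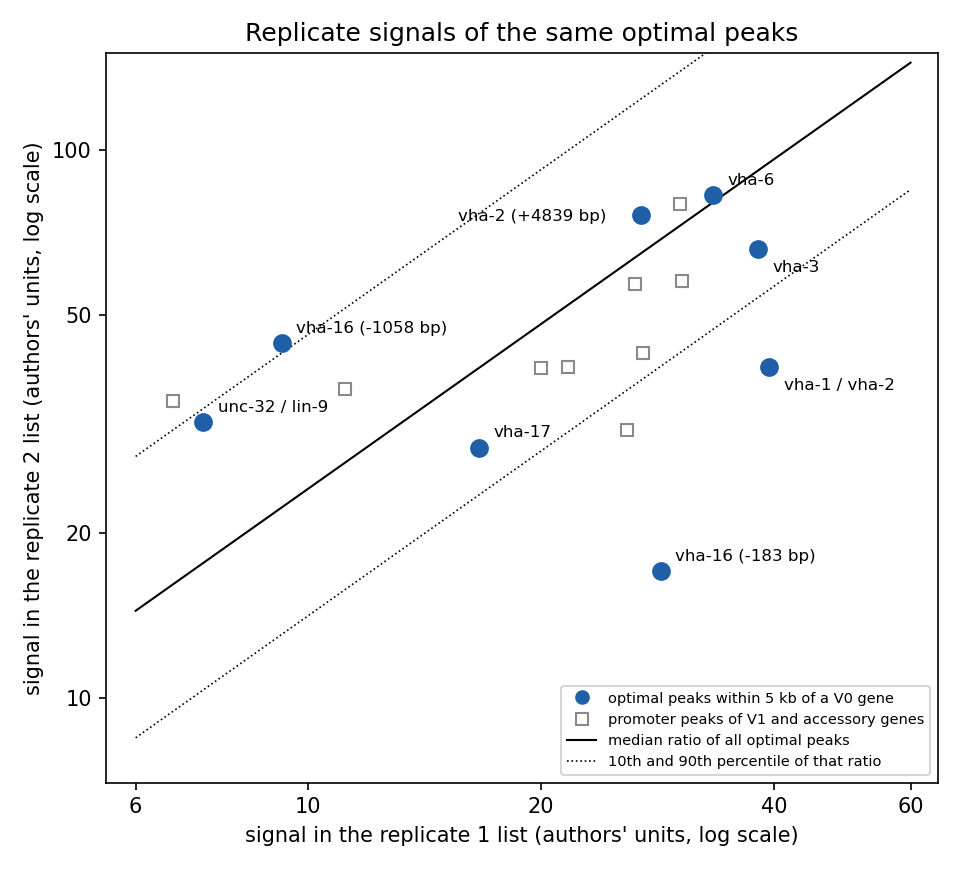
Signal of the same optimal peaks in the replicate 1 list (x) and the replicate 2 list (y), both in the authors' units on log scales. Filled circles are optimal peaks within 5 kb of V0 genes, open squares promoter peaks of V1 and accessory genes, the solid line is the median ratio of all optimal peaks (2.40) and dotted lines its 10th and 90th percentiles; the vha-1 peak, the near vha-16 peak and the accessory vha-19 peak (30.8 in replicate 2) lie under the lower dotted line.

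The replicates showed some V0 sites unevenly, as they did some sites of V1 and accessory genes. Over the 4703 optimal peaks overlapped in both replicates, the signal in replicate 2 was a median of 2.40 times that in replicate 1, with 1.41 and 4.59 at the 10th and 90th percentiles. The vha-6 peak had a ratio of 2.48, near the median. The near vha-16 peak had a ratio of 0.595, a value that only 0.298% of the optimal peaks fell below, and the vha-1 peak a ratio of 1.02, with 2.98% below it. The far vha-16 peak, at 4.79, and the unc-32 and lin-9 peak, at 4.34, were on the other side, with 91.3% and 88.5% of peaks below them. Among the accessory genes, the promoter peak of vha-19 had a ratio of 1.20 (5.27% below) and that of rbc-2 one of 5.17 (93.2% below). Of the promoter peaks, 3 of 4 at V0 genes and 6 of 9 at V1 and accessory genes were under the median ratio. Replicate 1 has a technical library more than replicate 2, and a part of that in these ratios was not tested.

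GATA words were found at a smaller share of V0 sites than of optimal peaks in general, a difference that was not tested. The 8 distinct optimal summits within 5 kb of V0 genes had a core word in 4 windows (50%) and TGATAAG in 2 (25%), against 84.2% and 44.1% of all 4739 optimal windows. In windows of the same length just upstream of all protein-coding starts the shares were 42.8% for the core and 7.10% for TGATAAG. Windows with the longer word are part of those with the core, since it contains a core word. The 2 windows with TGATAAG were the promoter site of vha-6, where the word is centred 12 bp downstream of the summit in the sequence above with a further core word 38 bp upstream of it, and the site in R10E11.5, which has 2 copies. The vha-17 window has a core word 15 bp upstream of the summit, and the far vha-16 window has one 93 bp from it.

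No core word was found at vha-1, vha-3, the near vha-16 site or the site of unc-32 and lin-9, nor at vha-4 under the threshold. Of the 1175 optimal peaks at least as strong as that of vha-1, 58 (4.94%) had none, and the vha-1 and vha-3 sites are 2 of them. Among the weaker pooled sites, unc-32 at −581 bp had a core word 25 bp from its summit and vha-2 at −274 bp one 21 bp from it. The E-box CACGTG and its longer form TCACGTGA, found in 6.27% and 0.781% of optimal windows, were absent from every V0 window searched. GTAAACA, the DAF-16 site, (4.90% of optimal windows) was found at the weak unc-32 promoter site and at no other V0 window searched, and GAGAGA (26.4% of optimal windows) at both vha-16 sites, the unc-32 sites and the weak vha-2 site. V0 windows had a median GC content of 43.0%, from 31.8% at vha-17 to 53.7% at vha-3, against a median of 36.8% in all optimal windows, and a part of base composition in these word counts was not tested. A word is a match of letters and not a measured binding site.

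**Figure D4:**
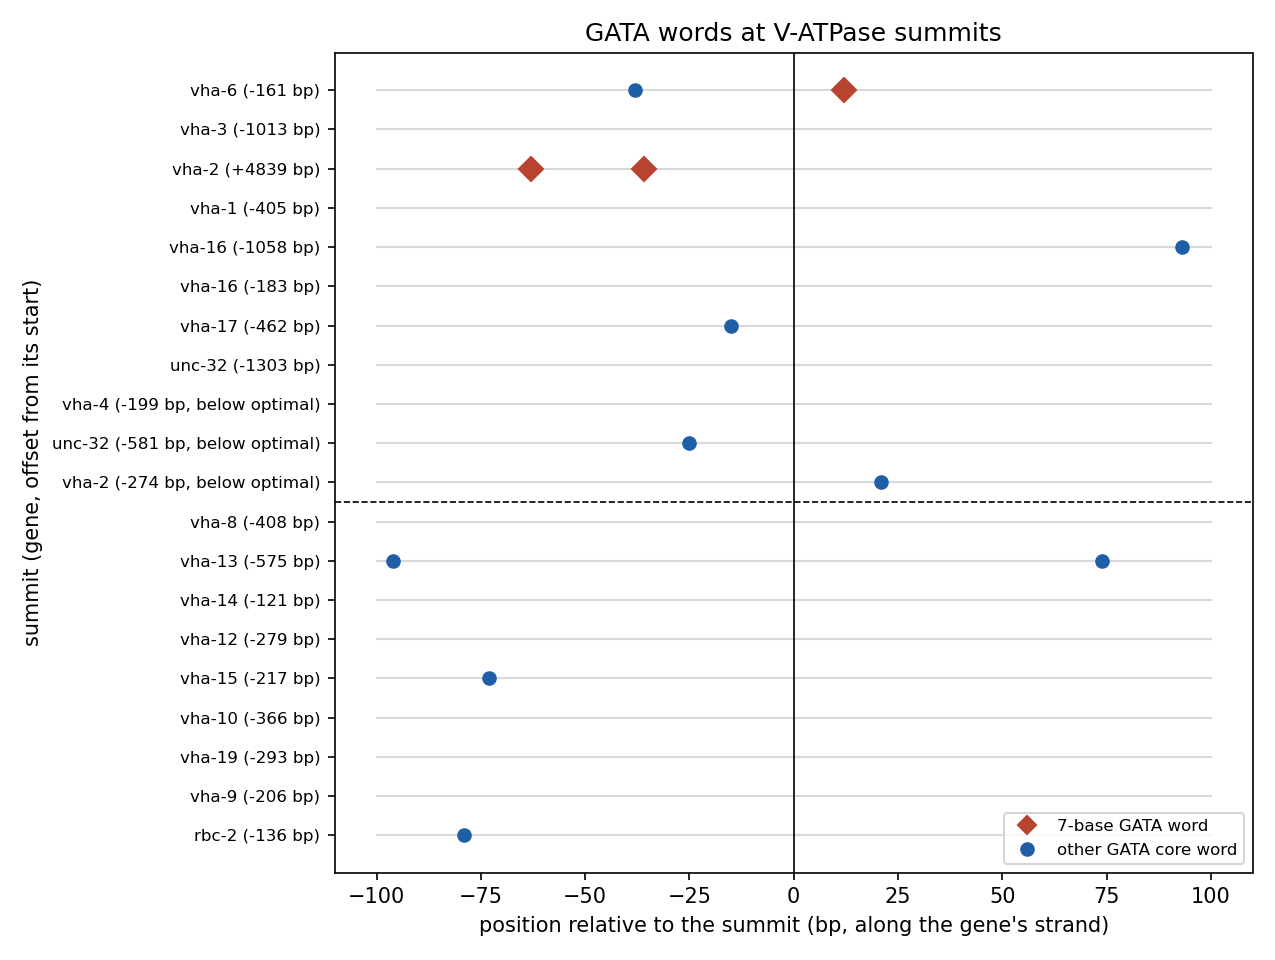
Positions of GATA words around summits (x, bp from the summit along the strand of the named gene; y, summit with its offset from the gene start). Diamonds are the 7-base word linked to PQM-1 and circles other core words; V0 summits are above the dashed line and promoter summits of V1 and accessory genes below it, and diamonds occur at the vha-6 site and at the site 4839 bp from the vha-2 start.

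The V0 genes were then set beside the rest of the pump. Optimal promoter summits were found at 4 of 10 V0 genes and 9 of 14 V1 and accessory genes (64.3%, exact 95% CI 35.1 to 87.2), that count made of 7 of 10 V1 genes and 2 of 4 accessory genes. The share of all nuclear protein-coding genes was 12.8%. The intervals treat genes of lists chosen by name as independent draws and measure no spread between replicates, so they do not compare the groups. The difference between V0 and the other pump genes was not tested. The highest of the V1 promoter signals were 108 at vha-8 (stalk subunit E), in a promoter shared with C17H12.2, then 86.5 at vha-13 (catalytic subunit A), 81.2 at vha-14 (D, of the central stalk), 68.1 at vha-12 (B), 62.8 at vha-15 (H) and 59.9 at vha-10 (G). vha-6 at 117 was above all of them, vha-1 at 78.4 fell among them, and vha-16 and vha-17 were below them. V1 and accessory genes with no optimal promoter summit were vha-11, spe-5 (a B subunit needed in spermatogenesis), vha-18 (a second H subunit), vha-20 (the prorenin receptor homologue) and rbc-1 (a rabconnectin of pump assembly).

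The same words were counted in V1 and accessory promoter windows. Of V0 promoter windows, 2 of 4 had a core word and 1 of 4 TGATAAG, and of V1 and accessory promoter windows 3 of 9 had a core word and 0 of 9 TGATAAG. Over the 13 promoter summits of the pump, 8 (61.5%) had no core word, against 20.1% of all 2234 optimal promoter summits. vha-6 was the 1 promoter site of the 13 with TGATAAG. These shares were not tested, and the median GC content of the 13 windows was 42.8%.

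**Figure D5:**
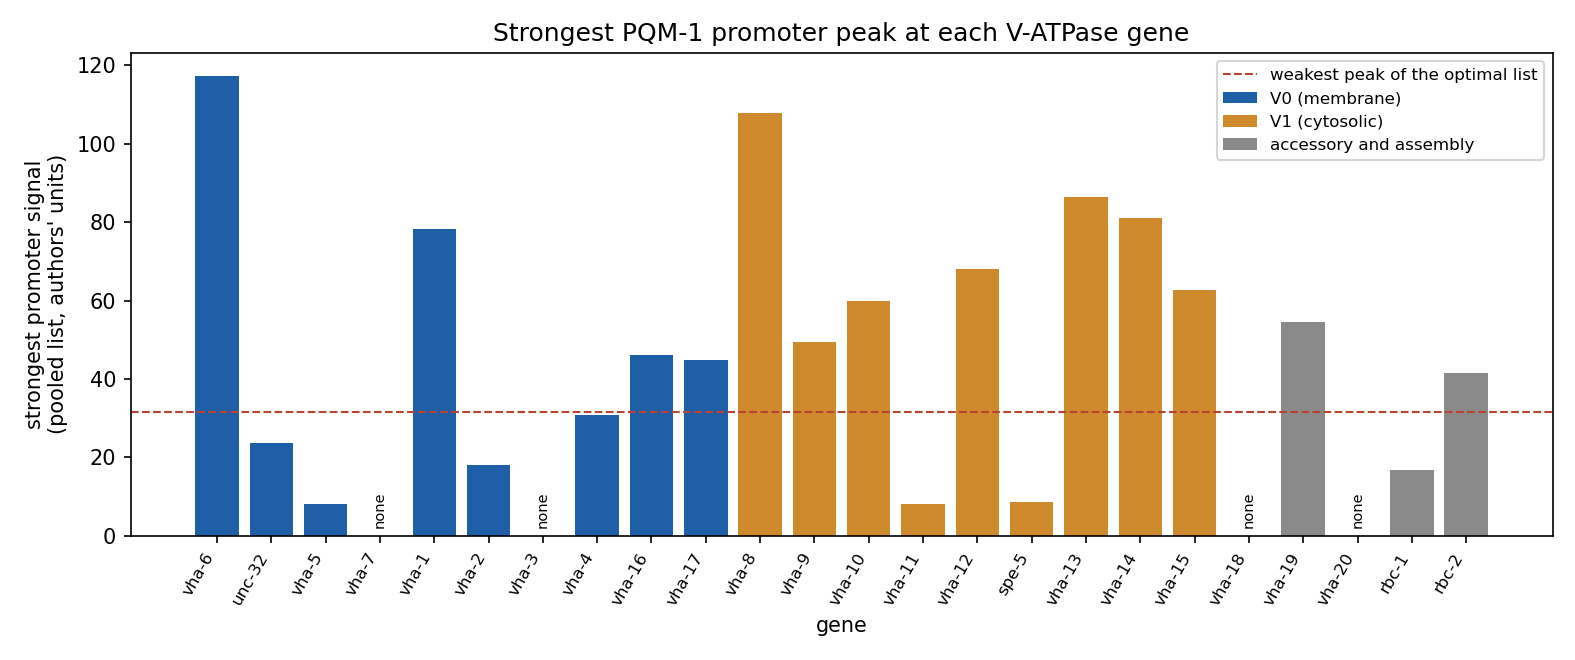
Strongest promoter signal of each V-ATPase gene in the pooled list (y, authors' units, from 0; x, gene), coloured by sector of the pump. The dashed line at 31.5 is the weakest optimal peak; vha-6 at 117 is the highest bar, vha-8 at 108 the next, and vha-4 at 30.8 ends just under the line.

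pqm-1 itself had no summit within 5 kb in any of the 4 lists. The strain also carries pqm-1 sequence on the transgene, and an effect of that on peaks at the locus was not tested. In each of the 4 windows printed above, 0 of 166 words of 36 bases occurred elsewhere in the genome. For vha-2 and vha-3, whose proteins are identical, that check was not made, and reads inside those genes may not be assignable to one of them. Read depth is unknown from peak lists, so a gene with no peak is one with none detected under these thresholds.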

How the data were processed

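PQM-1 ChIP-seq of 1 group (3 libraries, 2 biological replicates) was taken from 4 peak lists deposited by the authors on ce11: replicate 1, replicate 2, both pooled, and an optimal list filtered by reproducibility (IDR), per the deposited readmes. The signal per peak was set by the authors relative to a control. The deposited −log10 q reaches a ceiling in each list (4.04 for every optimal peak), so peaks were ranked by signal. For the peak caller, aligner and IDR threshold, none is given in the sources used here. The control named in the labels and the lists on the older build were not used here. Genes came from Ensembl release 115, starts being the 5′ end of the annotated gene, which is its outermost start. Positions are 1-based summits. An optimal peak was matched to the strongest replicate peak overlapping it by at least 1 bp. Words were searched on both strands in windows of 100 bp to each side of a summit. Proteins were translated from annotated coding sequence and aligned globally with Biopython 1.88 (Python 3.11.15, numpy 2.4.6, scipy 1.17.1). Confidence intervals are exact Clopper-Pearson at 95% and treat genes as independent. They measure no spread between replicates. The code for promoter counting was checked on simulated summits scored by the same promoter rule, so the rule itself was not tested. No test between groups was possible, and with 2 replicates values are given without p-values.

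The members, gene lists and word list were chosen with earlier results of these data known. Named genes are the 10 members, up to 6 V1 and accessory genes by promoter signal and those with no optimal promoter summit, genes sharing a member's promoter summit, same-strand genes ending within 1000 bp upstream of a member's start, pqm-1 and elt-2. vha-9, vha-19, rbc-2, lin-9, R10E11.5, Y38F2AL.12 and T01H3.5 were named after their values were seen, the last 4 as the genes at members' other summits. vha-11 was named also as the gene following vha-3. Alternatives changed the threshold, promoter, gene start, distance, window and summit definition, or left out a replicate.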

Additional observations from a re-analysis of the deposited data

How the results depend on the processing

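Threshold and promoter size moved the V0 counts. Promoter summits were found at 2 of 10 V0 genes (vha-1 and vha-6) in the stronger 50% of the optimal list, at 7 with 2 times as many pooled peaks (vha-2, vha-4 and unc-32 added), and at 7 with a promoter of 2000 bp upstream to 500 bp downstream (vha-2, vha-3 and unc-32 added), against 4. Of all genes, 6.34% had one in the stronger 50%, 23.9% with 2 times as many pooled peaks and 17.2% with the larger promoter, against 12.8%. V0 genes with a summit within 5 kb numbered 4 in the stronger 50%, against 7, and the share of all genes was 25.4%, against 41.7%. With 2 times as many pooled peaks they numbered 9 (vha-4 and vha-7 added), and the share of all genes was 60.5%. Without replicate 1 they numbered 8 (41.9% of all genes), and without replicate 2 also 8 (41.2%). Of the c ring genes, 3 had a promoter summit with 2 times as many pooled peaks and 3 with the larger promoter, against 1. Without a replicate there were 2 in each case (range 2 to 2), vha-1 and vha-3 without replicate 1 and vha-1 and vha-4 without replicate 2. The V0 promoter count ranged from 4 without replicate 1, where vha-3 is in and vha-16 is out, to 6 without replicate 2, where vha-4 and unc-32 are in. Of all genes, 12.7% had a promoter summit without replicate 1 and 12.7% without replicate 2.

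The log2 ratio of vha-6 over the next a subunit has no value in the optimal list, so the pooled value of 2.31 is reported. It was 3.19 with a promoter of 500 bp upstream to 100 bp downstream, 1.62 with the larger promoter, and 1.58 to 2.19 in single replicates. vha-6 was the higher gene throughout. The count of V1 and accessory genes stayed within 8 to 10 under the alternatives apart from the stronger 50%, where it was 6. Where the share of all genes was computed, it ran from 9.64% with the smaller promoter to 23.9% with 2 times as many pooled peaks. In the stronger 50% it was 6.34%. vha-6 was the 1 V0 promoter with TGATAAG under every alternative run. The causes were not tested. No paired analysis was possible because there is 1 group.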

Other observations

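A set of 8 upstream sites of the V0 genes was searched for words of 8 bases in common, after the sequences had been seen and with no test. This set is not the 8 distinct optimal summits above, since it includes vha-4, which has no optimal summit within 5 kb. No word was found at more than 3 of the 8 sites, and 7 words were found at 3, in 0.464% to 7.96% of all optimal windows. The rarest of the 7 in optimal windows was ACCGAAGA, read on either strand, at vha-6, vha-1 and vha-3. In all, 1438 words were seen at these sites.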
